A study of Homo sapiens with 2 samples.

Results

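The genes described here are 32 heat shock chaperones of the cytosol and mitochondria, their co-chaperones and the heat shock factors HSF1 and HSF2, taken by symbol from the 58051 annotated genes. They were read in 1 RNA sequencing library of BEAS-2B (genotype WT, here parental), a line of immortalised epithelial cells from the human bronchus, and 1 library of BEAS-2B cells labelled TRPV3-OE. TRPV3 is a calcium-permeable cation channel, and what drives its overexpression, and whether the line is 1 clone, is not given in the sources used here. Both were untreated and collected at confluence. The parental cells were between passage 20 and 30 and the TRPV3-OE cells between passage 4 and 8, so passage, line and TRPV3 level cannot be told apart. All 32 symbols matched a gene, and 31 had at least 100 counts summed over both libraries, the minimum for a gene to be called measured. The exception was HSPB8, a small heat shock protein, with 4 counts in the parental and 0 in the TRPV3-OE library, where the limit set at 3 counts is 0.168 counts per 1000000 (CPM).

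Heat shock proteins keep other proteins folded. HSP70 binds exposed stretches of unfolded chains in a cycle driven by ATP, HSP40 proteins (the DNAJ family) deliver the clients and start that cycle, and HSP110 and BAG proteins release them. HSP90 takes over partly folded kinases and receptors, the ring-shaped chaperonins TRiC and HSP60 fold proteins inside a chamber, and small heat shock proteins hold unfolded chains. HSF1 binds heat shock elements, repeats of the triplet GAA in alternating orientation, and switches many of these genes on under stress.

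The long form of that element was present near the start of 7 members, which include the most abundant ones. RefSeq promoter sequences (GRCh38.p14, 250 bases before and 50 after each annotated start) matched 31 of the 32 members with 45 start sites. They were searched on both strands for GAANNTTCNNGAA, which reads TTCNNGAANNTTC on the other strand. Of all 35116 promoters 172 (0.490%) held it, and 166 of the 27305 genes with a promoter entry (0.608%) did. The short form GAANNTTC or TTCNNGAA, which lies within the long one, was found in 20 of the 31 members and in 16.2% of all genes. The sites of the long form are printed with the match in capitals and in the direction of transcription. They show how the letters of the element read in these genes. The HSPA1A and HSPA1B lines show instead the short form, with capitals on that match, in the classic heat-inducible pair.
HSP90AA1, chr14:102087112-102087140, minus strand: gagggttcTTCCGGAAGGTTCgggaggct
HSPA8, chr11:123062346-123062374, minus strand: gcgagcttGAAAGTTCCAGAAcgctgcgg
HSPA8, chr11:123062171-123062199, minus strand: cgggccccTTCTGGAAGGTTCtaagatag
HSP90AB1, chr6:44247770-44247798, plus strand: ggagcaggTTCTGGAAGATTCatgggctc
HSP90AB1, chr6:44247823-44247851, plus strand: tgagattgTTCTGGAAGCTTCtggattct
DNAJA1, chr9:33025268-33025296, plus strand: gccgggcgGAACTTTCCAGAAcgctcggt
HSPD1, chr2:197500062-197500090, minus strand: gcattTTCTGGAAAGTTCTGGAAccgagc
CHORDC1, chr11:90223084-90223112, minus strand: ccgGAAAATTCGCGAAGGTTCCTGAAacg
DNAJB6, chr7:157336865-157336893, plus strand: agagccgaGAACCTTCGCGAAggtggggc
HSPA1A, chr6:31815426-31815455, plus strand: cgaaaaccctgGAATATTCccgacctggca
HSPA1B, chr6:31827622-31827651, plus strand: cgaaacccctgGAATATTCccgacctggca
The CHORDC1 and HSPD1 runs hold overlapping copies of the long form. Positions were counted from the start site of each RefSeq entry as 0, which for all 7 genes with the long form lies inside the gene's outermost bounds. The match of HSP90AA1 began at −88, those of HSPA8 at −230 and −55, and those of HSP90AB1 at −165 and −112. The matches of HSP90AB1 and DNAJB6 lie in an intron of a longer isoform by GENCODE 29. Those of HSP90AA1, HSPD1, DNAJA1 and CHORDC1 overlap an annotated untranslated region, as does the HSPA8 match at −55, while that at −230 lies in a noncoding exon. A match is a description of the letters and says nothing of whether HSF1 was bound.

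**Figure D1:**
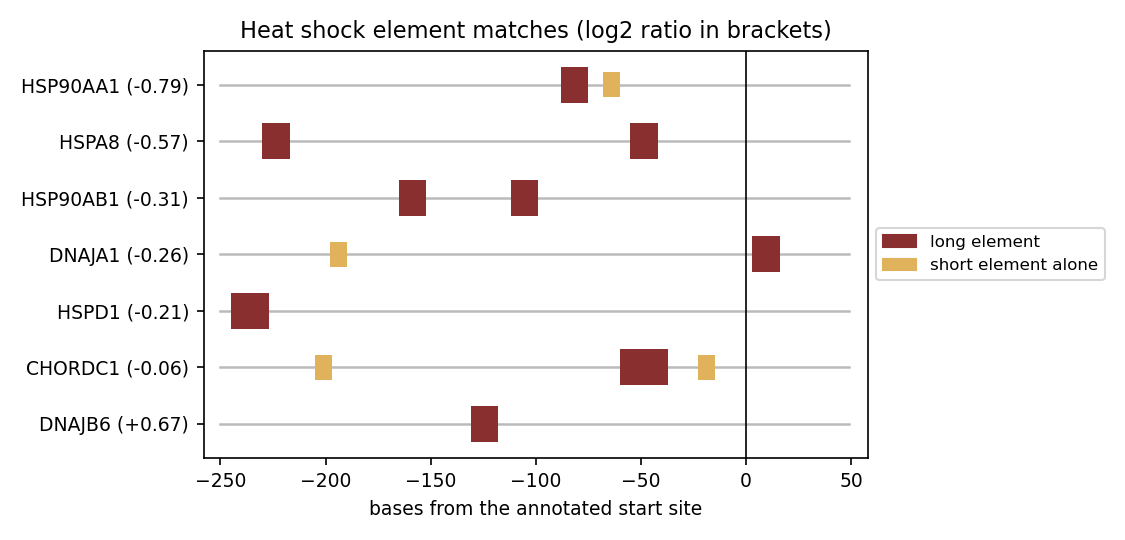
Position of heat shock element matches in the 7 members that hold the long form, in bases from the annotated start site of the RefSeq entry that holds it (line at 0). Dark boxes are the long form, light boxes a short form outside it, and brackets give the log2 ratio of TRPV3-OE over parental, from −0.79 for HSP90AA1 to 0.67 for DNAJB6.

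The libraries were equally deep, with 17450658 counts in the parental and 17477953 in the TRPV3-OE library, and the mitochondrial genome took 3.94% and 3.82% of them. TRPV3 had 26 and 54077 counts, as labelled. Of 8 airway epithelial markers 7 were measured, with a summed level of 3835 and 4564 transcripts per 1000000 (TPM, a level per gene length). They went both ways between the libraries. The log2 ratios of TRPV3-OE over parental were −0.40 for KRT5, −0.41 for TP63 and −0.09 for CDH1. For EPCAM, KRT8, KRT18 and KRT19 they were 0.55, 0.38, 0.35 and 0.45. KRT14 had 15 counts in the parental library and was at 0 in TRPV3-OE. The markers of other cells summed to 8.86 and 6.19 TPM for fibroblasts (6 genes, COL3A1 and LUM at 0 in both), 9.88 and 1.86 TPM for endothelium (4 genes, KDR at 0 in both) and 0.235 and 0.378 TPM for immune cells (5 genes, PTPRC, CD3E and LYZ at 0 in both). COL1A1 alone held 8.76 and 6.13 TPM of the fibroblast sums, and CDH5 alone 9.42 and 1.24 TPM of the endothelial sums. Since each line is a single library, differences were not checked against replicates and p-values are left out. The 95% intervals are exact and take in the error of counting alone, and PCR copies are not independent molecules. In such bulk libraries fewer cells of a type and less RNA per cell cannot be told apart.

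The chaperones had a median log2 ratio close to that of all measured genes, and the 3 members with the highest counts in either library were lower in TRPV3-OE. A 2-fold difference was reached by 0 of the 31 measured members in the higher direction and by 0 in the lower, where 5.31% and 5.35% of all 11466 measured genes reached it. At 1.5-fold, a log2 ratio of 0.58 in either direction, 2 were higher (DNAJB2 and DNAJB6) and 1 was lower (HSP90AA1), beside 12.7% and 14.2% of all measured genes. Each call also required an interval wholly on that side of 1. The median log2 ratio of TRPV3-OE over parental was −0.05 over the members and −0.03 over all measured genes, and the median of its absolute value 0.21 against 0.33. Among the 8858 genes with at least 500 counts, a minimum that all 31 passed, the median absolute value was 0.29, 9.38% were past 1.5-fold higher and 11.8% lower, and 2.77% and 3.65% past 2-fold. With 31 members, counts of 0, 2 and 1 are too small to set the chaperones apart from these shares. Counting error was small at this depth: the interval lay wholly below a ratio of 1 for 14 members, wholly above it for 10, and held 1 for 7. The same count was not made over all measured genes, so these numbers describe depth and show nothing particular to chaperones. Scaling by total counts, DESeq2 size factors or upper quartile put DNAJB1 wholly above 1 and left HSPA1A holding 1, and the first and last of these also left BAG2 holding 1.

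Summed over all 32 members the chaperones were 1.65% of all counts in the parental and 1.46% in the TRPV3-OE library. HSP90AA1, HSP90AB1 and HSPA8 held 150145 of 288640 chaperone counts in the parental library and 104696 of 255578 in TRPV3-OE. Their sum was 8766 and 5879 CPM, a log2 ratio of −0.58 (−0.59 to −0.56). The other 29 members together went from 8086 to 8473 CPM, a log2 ratio of 0.07 (0.06 to 0.08). On balance the lower total in TRPV3-OE therefore lay in those 3 genes. Among the other 29 there were losses too, such as CCT2 (626 to 524 CPM) and DNAJA1 (551 to 460 CPM). Gains, such as CCT5 (766 to 1061 CPM) and TCP1 (579 to 746 CPM), outweighed the losses.

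**Figure D2:**
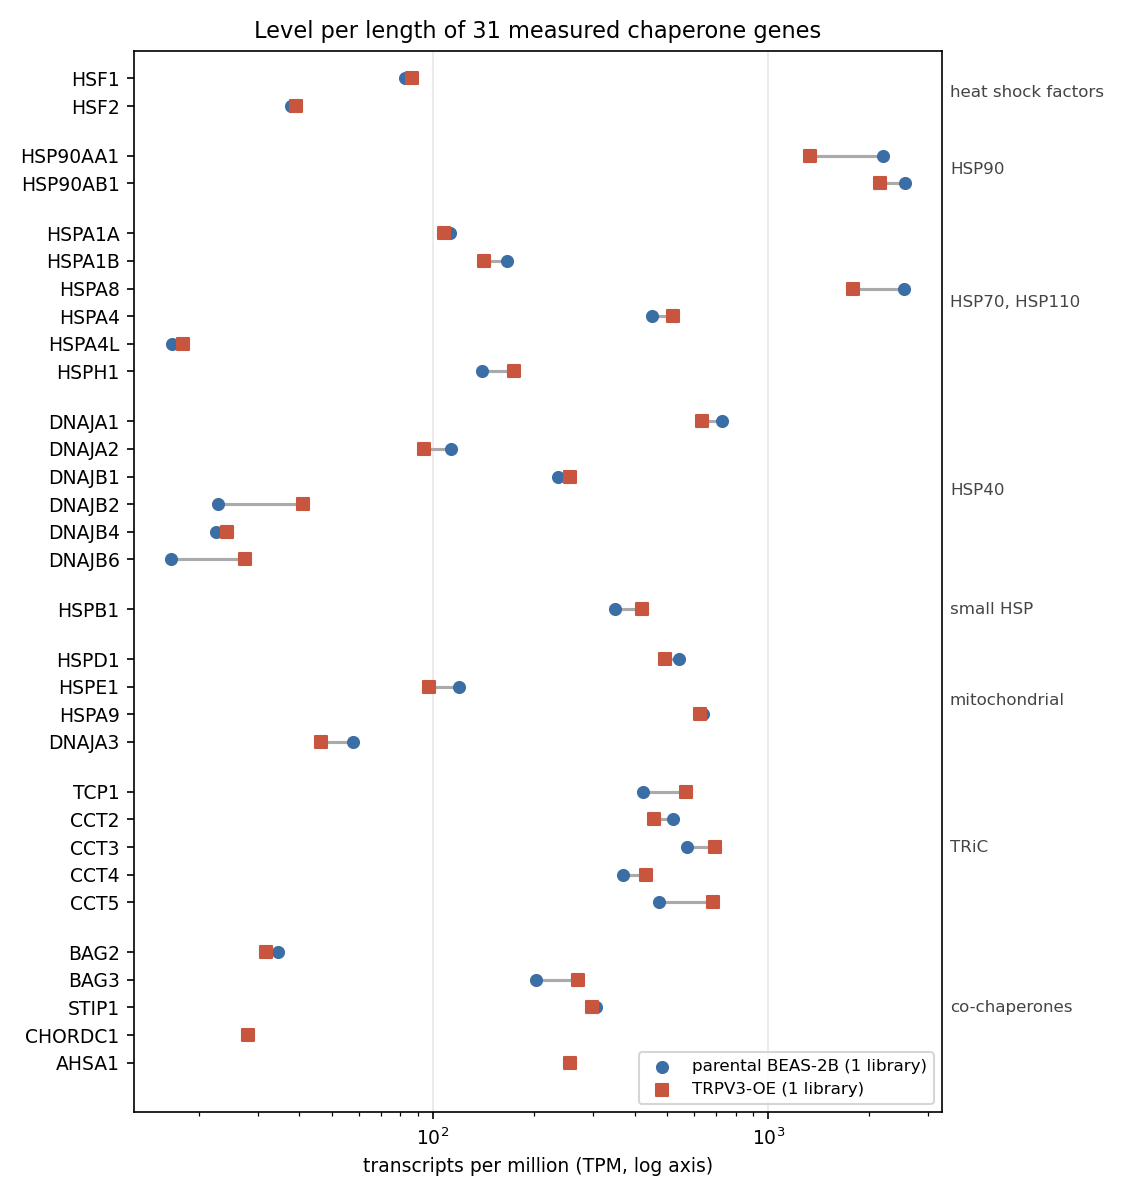
Level per length of the 31 measured members in TPM (log axis), by role, in the parental (circles) and TRPV3-OE (squares) library, 1 library each. HSP90AB1, HSPA8 and HSP90AA1 stand apart at 1333 to 2562 TPM, and HSPA4L is at 16.7 TPM in the parental library, beside DNAJB6 at 16.5 TPM, whose long summed exon length understates it.

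HSF1, the main activator of the heat shock response, had 2083 and 2184 counts, 122 and 123 CPM, with a log2 ratio of 0.01 (−0.08 to 0.10). HSF2, a related factor that acts with it in development and stress, had 485 and 498 counts and a ratio of −0.02 (−0.20 to 0.17), whose sign turned under each of the other scalings. Neither RNA differed beyond its counting error, and the activity of these factors is set largely by the protein's state, which RNA counts do not measure.

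The cytosolic HSP90 genes were both lower in TRPV3-OE, by unequal amounts. HSP90AA1, the stress-inducible form (ENSG00000080824, chromosome 14, 102080738 to 102139699 of GRCh38, minus strand), went from 54999 parental to 33128 TRPV3-OE counts. In CPM this was 3211 (3184 to 3238) and 1860 (1840 to 1880), 1.73-fold lower with a log2 ratio of −0.79 (−0.81 to −0.77). By TPM it was rank 31 of all genes in the parental and rank 58 in the TRPV3-OE library. HSP90AB1, the constitutive form (ENSG00000096384, chromosome 6, 44246166 to 44253888, plus strand), had 36384 and 30467 counts. Its levels of 2124 CPM (2103 to 2146) and 1711 CPM (1692 to 1730) gave a log2 ratio of −0.31 (−0.33 to −0.29). The inducible form thus took 60.2% of their summed counts in the parental library (59.9 to 60.5, Clopper-Pearson) and 52.1% in TRPV3-OE (51.7 to 52.5). Divided by the summed exon length the shares were 46.2% and 38.2%, and by the longest coding transcript 53.5% and 45.3%, so which form was higher per length in the parental library depended on the length used. By each of these measures the share was lower in TRPV3-OE. This share is taken within a library and does not depend on the scaling between libraries.

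HSP90AA1 lies among genes that were lower too. Its 50 nearest measured genes on chromosome 14, from 99397746 to 105480170 (6.08 Mb), had a median log2 ratio of −0.78, and 45 of the 50 were below 0. Of them 24 were below HSP90AA1 and 26 above it, so the gene sat in the middle of its neighbours, and after subtraction of their median its own log2 ratio was −0.01 and no member was at least 1.5-fold lower. HSP90AB1 had neighbours with a median of −0.19 and was at −0.12 after subtraction, so by that measure it was the lower of the 2 HSP90 genes. Whether the neighbourhood has a part in the lower HSP90AA1 level was not tested.

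**Figure D3:**
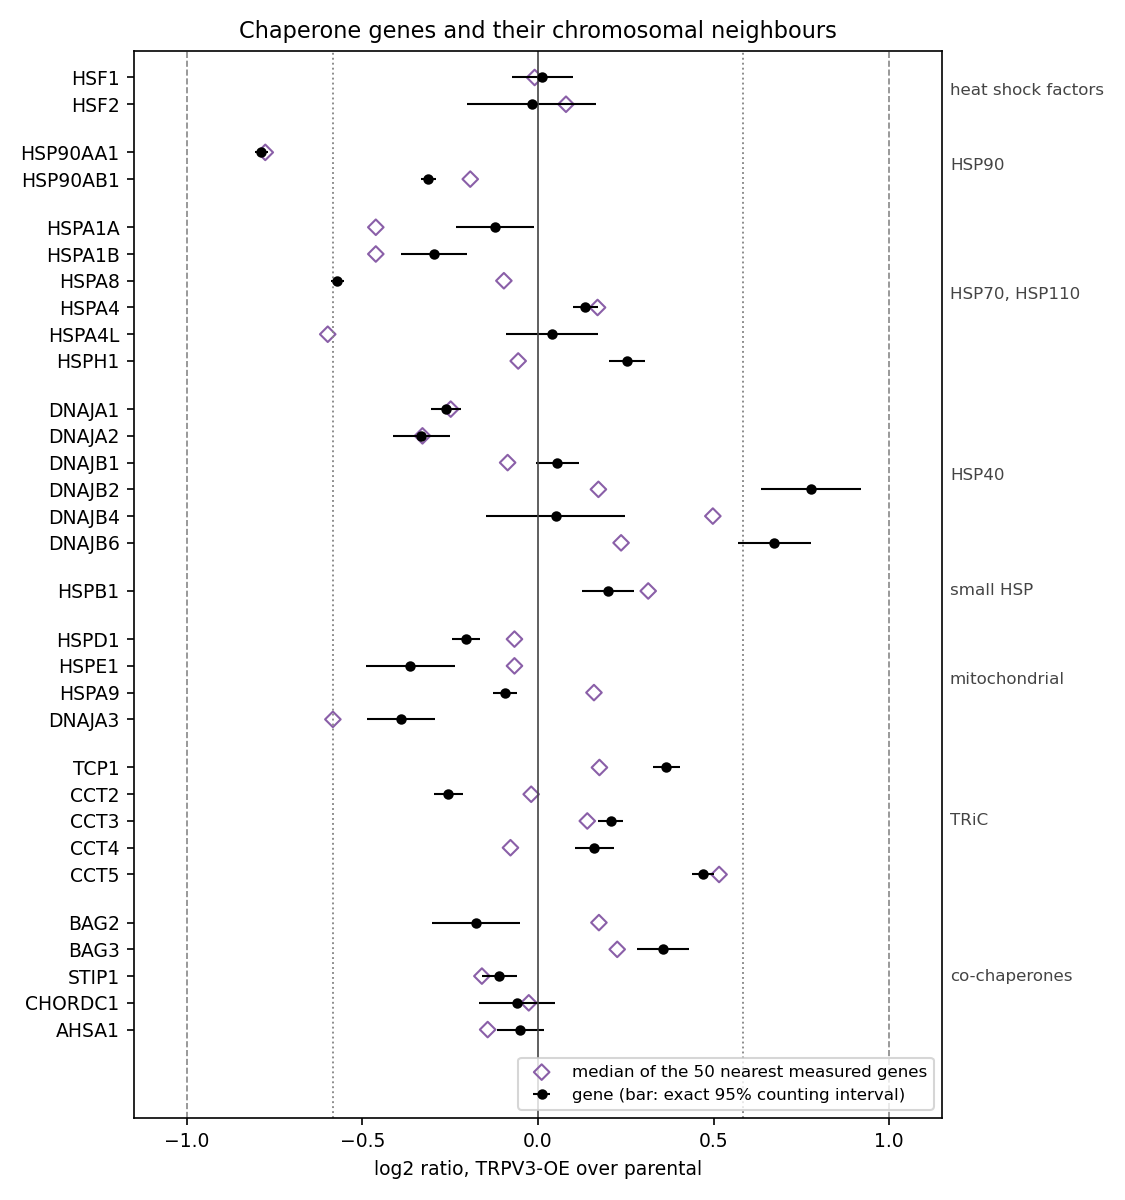
Log2 ratio of TRPV3-OE over parental for the 31 measured members by role (points, with exact 95% counting intervals) and the median of the 50 nearest measured genes (diamonds). Dotted lines mark 1.5-fold and dashed lines 2-fold. HSP90AA1, DNAJA1, DNAJA2 and CCT5 lie close to their neighbours' median, while HSPA8 and HSPA4L lie apart from it.

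Among the HSP70 and HSP110 genes the constitutive HSP70 stood out. HSPA8, the housekeeping cytosolic HSP70 (ENSG00000109971, chromosome 11, 123057489 to 123063230, minus strand), had 58762 and 41101 counts. That is 3431 CPM (3403 to 3459) and 2308 CPM (2286 to 2330), a log2 ratio of −0.57 (−0.59 to −0.55), just under the 1.5-fold limit. By loss in CPM it was rank 7 of all genes, beside rank 5 for HSP90AA1. Unlike HSP90AA1 it was lower than most of its surroundings: the 50 nearest genes had a median of −0.10, 40 of them above HSPA8. Its difference after subtraction was −0.47.

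The stress-inducible HSP70 genes HSPA1A and HSPA1B were lower by less than HSPA8. HSPA1A had 1330 and 1270 counts with a log2 ratio of −0.12 (−0.23 to −0.01), an interval that held 0 under the other scalings, and HSPA1B 1997 and 1692 counts with −0.30 (−0.39 to −0.20). Together they were 5.36% of the counts of these 3 genes in the parental library (5.18 to 5.54) and 6.72% in TRPV3-OE (6.49 to 6.96). Their neighbours in the major histocompatibility region of chromosome 6 had a median of −0.46, so after subtraction both were above 0, at 0.34 and 0.17. Of the stretches of 50 bases in the HSPA1A transcript 72.6% are also in HSPA1B. Reads that align to both genes are not in the counts, so the level of each is understated and its share of the pair is uncertain. In HSPA8 15.4% of such stretches recur in other genes, so the 5.36% and 6.72% are likely too low. Their intervals do not take this in.

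The nucleotide exchange factors of the HSP110 family were slightly higher or level. HSPH1, the heat-inducible HSP110, had 5598 and 6940 counts and a log2 ratio of 0.25 (0.20 to 0.30), against −0.06 for its neighbours. HSPA4, its constitutive relative, had 11087 and 12658 counts and 0.13 (0.10 to 0.17), close to the 0.17 of its neighbours. HSPA4L had 926 and 989 counts and 0.04 (−0.09 to 0.17), while 45 of its 50 nearest genes on chromosome 4 were below 0 with a median of −0.60. After subtraction HSPA4L was at 0.64, past 1.5-fold. HSPH1 made up 33.6% of the summed HSPH1 and HSPA4 counts in the parental library (32.8 to 34.3) and 35.4% in TRPV3-OE (34.7 to 36.1).

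**Figure D4:**
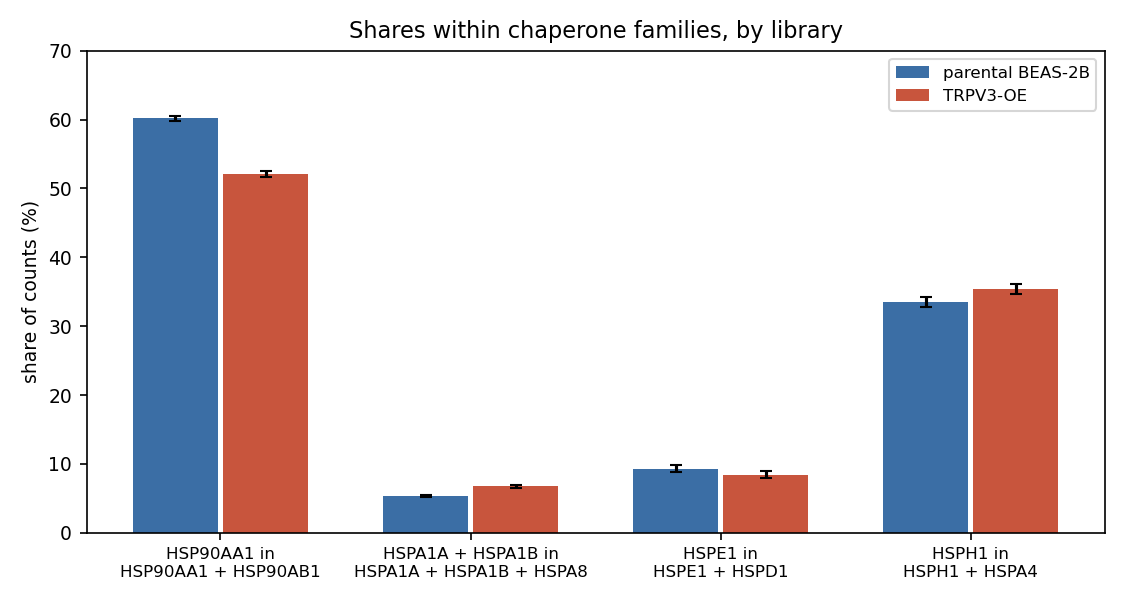
Share of counts (%) of 1 form within 4 chaperone families in the parental (left bar) and TRPV3-OE (right bar) library, with exact binomial 95% intervals. The HSP90AA1 share is 60.2% and 52.1%, and the HSPE1 share 9.32% and 8.44% with intervals that overlap.

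The HSP40 genes divided. DNAJB2, an HSP40 that passes clients to the proteasome and is best known from neurons (ENSG00000135924, chromosome 2, 219279267 to 219286900, plus strand), had 641 and 1142 counts. Its levels of 37.4 CPM (34.6 to 40.4) and 64.1 CPM (60.5 to 68.0) were 1.71-fold apart, with a log2 ratio of 0.78 (0.64 to 0.92). The neighbours had a median of 0.17, and 0.61 remained after subtraction. DNAJB6, which holds back protein aggregation (ENSG00000105993, chromosome 7, 157335381 to 157417439, plus strand), had 1181 and 1958 counts. It went from 69.0 CPM (65.1 to 73.0) to 109.95 CPM (105 to 115), a log2 ratio of 0.67 (0.57 to 0.78), and 0.44 after subtraction, below the limit.

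Both had lower levels per length than DNAJA1 and DNAJB1, at 22.9 and 41.0 TPM for DNAJB2 and 16.5 and 27.6 TPM for DNAJB6. The files' summed exon length of DNAJB6, 14981 bases, is far above the 2527 bases of its longest coding transcript, so its TPM is understated, and 19.1% of the 50-base stretches of that transcript recur in genes elsewhere. The abundant HSP40 is DNAJA1, a general HSP70 partner, at 726 and 634 TPM, with 9442 and 8193 counts and a log2 ratio of −0.26 (−0.30 to −0.22). Its neighbours were at −0.25. DNAJA2, a close relative, had 2726 and 2250 counts and −0.33 (−0.41 to −0.25), with neighbours also at −0.33. DNAJB1, the heat-inducible HSP40, had 4140 and 4471 counts and 0.05 (−0.01 to 0.12). Under the other scalings it was between 0.10 and 0.11 with intervals above 0. DNAJB4 had 406 and 437 counts and 0.05 (−0.15 to 0.25) in a part of chromosome 1 where the neighbours were at 0.50. DNAJB1 thus differed little, and whether it did so beyond counting error depended on the scaling, while DNAJA1 and DNAJA2 were lower by about as much as their surroundings.

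HSPB1 (HSP27), the small heat shock protein that these cells make, had 2717 and 3245 counts, 349 and 419 TPM, and a log2 ratio of 0.20 (0.13 to 0.27) beside 0.31 for its neighbours. It was the single measured small heat shock protein among the members.

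All 4 mitochondrial members were below 0, at −0.09 to −0.39, as were 53.0% of all measured genes. HSPD1 (HSP60), the chaperonin of the matrix, had 10952 and 9877 counts and a log2 ratio of −0.21 (−0.24 to −0.17). HSPE1 (HSP10), the lid of that chaperonin, had 1126 and 910 counts and −0.36 (−0.49 to −0.24). These genes lie head to head on chromosome 2, their neighbours had a median of −0.07, and HSPE1 took 9.32% (8.81 to 9.86) and 8.44% (7.92 to 8.98) of their summed counts. Its exons share 9.71% of their bases on the same strand with the readthrough gene HSPE1-MOB4, and reads there are not counted, so HSPE1 is uncertain. HSPA9 (mortalin), the HSP70 of the matrix that also drives protein import, had 14462 and 14079 counts and −0.09 (−0.13 to −0.06), below its neighbours at 0.16. DNAJA3, its HSP40 partner, had 1953 and 1550 counts and −0.39 (−0.49 to −0.29), above its neighbours on chromosome 16 at −0.58.

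The chaperonin TRiC, the ring that folds actin and tubulin, had 4 of its 5 members above 0, as were 5394 of all 11466 measured genes. CCT5 had 13122 and 18892 counts and a log2 ratio of 0.47 (0.44 to 0.50), the largest gain among the members in CPM (766 to 1061). TCP1, the alpha subunit, had 9916 and 13282 counts and 0.37 (0.33 to 0.40), CCT3 10972 and 13162 counts and 0.21 (0.17 to 0.24), and CCT4 4970 and 5776 counts and 0.16 (0.11 to 0.22). CCT2 went the other way, with 10721 and 9340 counts and −0.26 (−0.30 to −0.21). The remaining subunits CCT6A, CCT8 and CCT7, named to complete the complex, were at 0.27, 0.14 and 0.00. Over all 8 the median was 0.18, and 0 passed 1.5-fold.

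The subunits enter the ring in equal numbers, and their RNA levels ran from 369 to 573 TPM in the parental and from 431 to 692 TPM in TRPV3-OE. The highest was 1.55 times the lowest in the parental and 1.60 times in the TRPV3-OE library. Per base of the longest coding transcript, in place of the summed exon length, these spreads were 2.59 and 2.67 times, from CCT4 to CCT3, so how close the levels lay depended on the length used. CCT5 lies on the short arm of chromosome 5, where 44 of its 50 nearest genes were above 0 with a median of 0.52, so after subtraction it was at −0.05. CCT2 was below its neighbours (−0.02), and TCP1 was above its own (0.17).

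Of the 5 co-chaperones among the members BAG3 was higher and the others lay between −0.18 and −0.05. BAG3, a stress-induced HSP70 partner in selective autophagy, had 2649 and 3525 counts and a log2 ratio of 0.36 (0.28 to 0.43), beside 0.23 for its neighbours. STIP1 (HOP), which links HSP70 to HSP90, had 6808 and 6558 counts and −0.11 (−0.16 to −0.06). AHSA1, the activator of the HSP90 ATPase, had 3571 and 3586 counts and −0.05 (−0.12 to 0.02), a sign that turned with scaling by total counts or upper quartile. CHORDC1, an HSP90 co-chaperone, had 1418 and 1414 counts and −0.06 (−0.17 to 0.05), and BAG2, an inhibitor of the ubiquitin ligase CHIP, had 1092 and 1004 counts and −0.18 (−0.30 to −0.05). The HSP90 partners among the members, STIP1, AHSA1 and CHORDC1, thus lay between −0.11 and −0.05, with HSP90AA1 at −0.79. The 22 other measured co-chaperones of HSP90 and HSP70, given below, had a median of −0.31.

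Of the 7 members with the long heat shock element 6 were below 0, with a median log2 ratio of −0.26 and a range from −0.79 to 0.67 (HSP90AA1 and DNAJB6). Of all measured genes 53.0% were below 0, and 1 of the 6, CHORDC1, had an interval that held 0. The 23 measured members without it in these windows had 11 below 0 and 12 above, and a median of 0.04. HSF1 had no promoter entry and is in neither group. Among the 23 are the heat- or stress-inducible HSPA1A, HSPA1B, DNAJB1 and HSPH1, and HSPE1, whose gene bounds take in the HSPD1 match. The groups therefore do not divide the members into targets of HSF1 and others. By the short form the medians were −0.11 for 19 measured members and 0.13 for 11. After subtraction of the neighbours' median, of the 7 with the long form HSP90AA1, DNAJA1 and CHORDC1 were at −0.01, −0.01 and −0.03. HSPA8, HSPD1 and HSP90AB1 were at −0.47, −0.14 and −0.12, and DNAJB6 at 0.44. These are descriptions of 2 libraries with no test. Members described above as heat- or stress-inducible lie on both sides. HSP90AA1 was at −0.79, HSPA1B at −0.30 and HSPA1A at −0.12, while HSPH1 was at 0.25 and BAG3 at 0.36. DNAJB1, at 0.05, had an interval that held 0.

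Other genes of protein folding were taken from 7 lists with 104 genes, of which 88 were measured. Of these 4 were at least 1.5-fold higher and 8 lower, beside 12.7% and 14.2% of all measured genes, and their median log2 ratio was −0.01. Among 8 other measured HSP90 and HSP70 genes 2 were higher and 1 lower at 1.5-fold (median 0.32). HSPA12A, a distant HSP70 relative, had 75 and 250 counts, 3.21-fold higher with a log2 ratio of 1.68 (1.30 to 2.07). HSPA2, best known from the testis, had 31 and 84 counts, 2.61-fold higher with 1.38 (0.77 to 2.03). TRAP1, the mitochondrial HSP90, was 1.68-fold lower with 4006 and 2473 counts, and HYOU1, an HSP110 of the endoplasmic reticulum, had a log2 ratio of 0.53. The endoplasmic reticulum HSP90 gene HSP90B1, named here for its place in the family, had 35042 and 39262 counts and 0.11 (0.09 to 0.13), so it was not lower with its cytosolic relatives. HSPA6, the strictly inducible HSP70 named after its value was seen, had 3 and 24 counts, too few to be measured, with a log2 ratio of 2.94 (1.22 to 5.32).

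The 27 other HSP40 genes had 1 higher and 4 lower at 1.5-fold and a median of 0.00. DNAJA4 was 3.41-fold higher with 210 and 744 counts, a larger difference than any member showed. DNAJC25 was 2.52-fold lower (784 and 324 counts), DNAJB14 1.86-fold (941 and 525) and DNAJB5 1.80-fold (171 and 99). The 22 other co-chaperones of HSP90 and HSP70 had 0 higher and 2 lower and a median of −0.31. STUB1, the ubiquitin ligase CHIP, was 1.82-fold lower (1648 and 943 counts) and TOMM34 1.70-fold lower (2535 and 1552), while BAG6 and BAG4 had log2 ratios of −0.56 and −0.55.

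Of 13 measured genes of mitochondrial folding and quality control 1 was lower, TRAP1, and 0 higher, with a median of −0.27. TIMM44, an import motor subunit, GRPEL1, the exchange factor of HSPA9, and the protease CLPP had log2 ratios of −0.54, −0.49 and −0.47. The 10 genes of TRiC and prefoldin, the carrier that hands chains to TRiC, had 0 higher and 0 lower (median 0.02), with PFDN1, PFDN6 and PFDN2 at −0.23, 0.18 and −0.18. Of 9 measured further heat shock factor genes and targets 1 was higher and 1 lower (median −0.20). These were the stress factor gene ATF3 (86 and 200 counts, 2.24-fold) and SERPINH1, the collagen chaperone HSP47 (4048 and 2474 counts, 1.70-fold lower), while HSBP1L1 and MRPL18 had log2 ratios of −0.58 and 0.36. Of 7 other small heat shock protein genes 0 were measured and 5 had no count in either library.

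**Figure D5:**
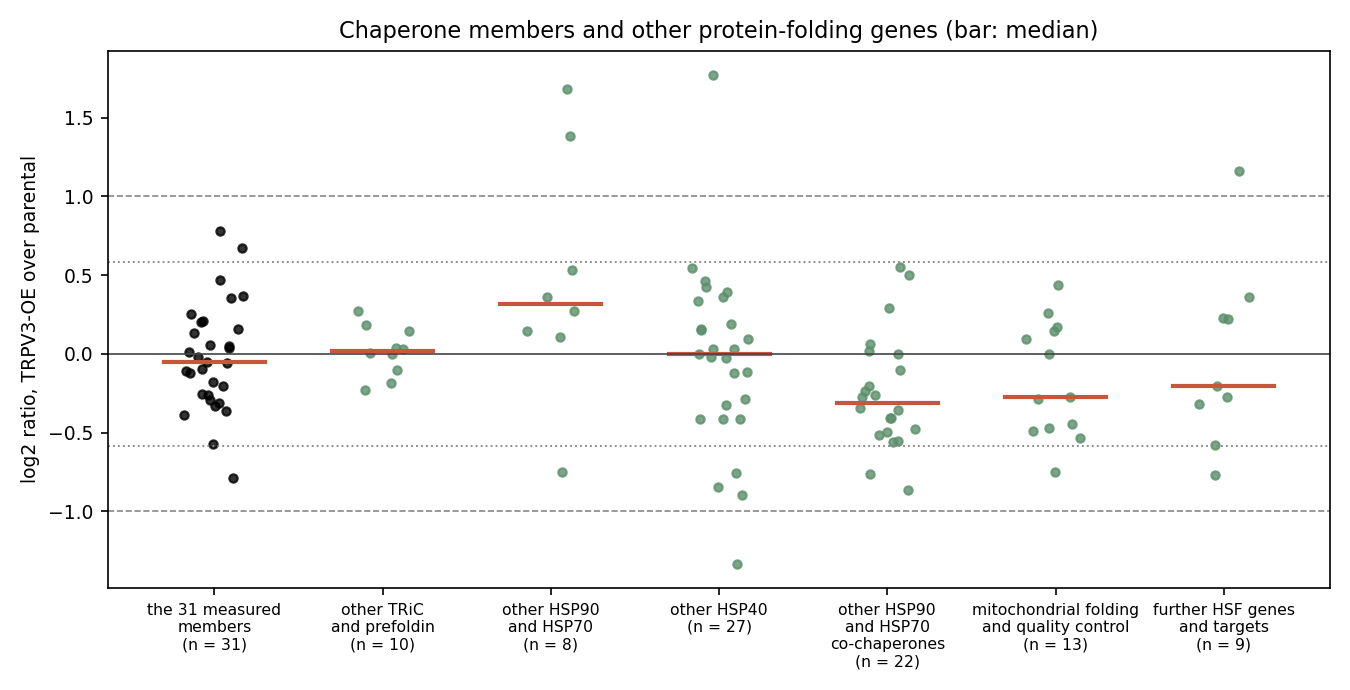
Log2 ratio of TRPV3-OE over parental for the 31 measured members and for the measured genes of 6 other lists (each point 1 gene, bar the median; dotted lines 1.5-fold, dashed lines 2-fold). The members span −0.79 to 0.78, and the highest and lowest points are DNAJA4 at 1.77 and DNAJC25 at −1.33, both other HSP40 genes.

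Copies elsewhere in the genome touch several values. HSPA8 has 17 named pseudogenes, which together held 713 and 611 counts, 1.21% and 1.49% of the HSPA8 counts, mostly on HSPA8P1 (678 and 588). The 5 of HSP90AA1 held 71 and 27 counts and the 18 of HSPD1 34 and 36. Shared stretches of 50 bases made up 17.5% of the HSP90AA1 transcript, 18.8% of HSP90AB1, 15.4% of HSPA8 and 24.8% of HSPD1. Reads within such stretches are left out where they align to more than 1 gene, and how many were left out is not in the counts.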

How the data were processed

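RNA was sequenced from 2 libraries, 1 per group, grouped by their genotype label. Per the file headers, the authors counted reads per gene with featureCounts 1.5.0-p3 (strand setting 2, Ensembl release 87 models of GRCh38.p7) and deposited the counts unscaled. The command lines show no option for reads with several alignments or over several genes, which are then left out. Per the submitters' processing notes, STAR and DESeq2 were used as well, with no version given here.

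Symbols matched 56948 IDs. TMM factors of 0.981 and 1.02 came from edgeR 4.0.16 (R 4.3.3). Without replicates there was no spread to fit a model on. CPM has exact Poisson 95% intervals, and the log2 ratio exact conditional binomial (Clopper-Pearson) ones. TPM came from the counts and the deposited summed exon length and sums to 1000000 in each library without TMM, so its direction can differ for small ratios. Calls need at least 100 summed counts, a ratio past 1.5-fold or 2-fold and an interval on that side of 1. In ratios 0.5 stood for 0 counts. Neighbours are the 50 measured genes nearest by midpoint. Shared stretches are 50-base runs of the longest GENCODE 29 coding transcript found in transcripts of genes at another place. Genes named were all members and up to 4 measured genes per other list with the largest absolute log2 ratio. The members, lists and alternatives were chosen with earlier results of these data known. The calculation was tested on simulated data. Python 3.11.15, numpy 2.4.6, scipy 1.17.1, pandas 2.3.3, matplotlib 3.10.9 and DESeq2 1.42.0 (size factors as an alternative) were used.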

Additional observations from a re-analysis of the deposited data

How the results depend on the processing

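Scaling by total counts, DESeq2 size factors or upper quartile moved the median of all measured genes by at most 0.06 and kept all 4 counts of called members. These scalings put 13, 10 and 14 of the 31 log2 ratios outside their intervals, which do not take in the choice of scaling. The members' median of −0.05 became 0.00, −0.01 and 0.01. A minimum of 1 or 500 counts and leaving out HSPA1A and HSPA1B kept these counts too, with medians of −0.06, −0.05 and −0.02. Taking the 50 nearest genes' median off each ratio changed most: the number at least 1.5-fold lower went from 1 to 0, and the number higher stayed at 2, but as DNAJB2 and HSPA4L. With it 26 of 31 log2 ratios left their interval, 9 changed sign (none of HSP90AA1, DNAJB2 and DNAJB6) and the largest shift was 0.78, which the construction sets. The HSP90AA1 share of 60.2% and 52.1% was 46.2% and 38.2% divided by summed exon length, 53.5% and 45.3% divided by the longest coding transcript (chosen after seeing the data), and 42.2% and 31.5% with HSP90B1 and TRAP1 in the denominator. A prior count of 5 left all 31 log2 ratios within their intervals. No paired analysis was possible because there was a single library of either line, so none could be left out. Depth limits DNAJB4 most among the measured members, with an interval 0.40 wide on the log2 scale from end to end.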

Other observations

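The 12 genes of the other folding lists past 1.5-fold differed in how they sat among their 50 nearest measured genes. Of the 8 lower ones, STUB1 and TRAP1 on chromosome 16 had log2 ratios of −0.86 and −0.75 beside neighbours at −0.66 and −0.56. DNAJB14 on chromosome 4 was at −0.90 beside −0.70, and DNAJC24 on chromosome 11, named here after its value was seen, at −0.76 beside −0.69. DNAJC25 (−1.33), TOMM34 (−0.76) and SERPINH1 (−0.77) had neighbours at 0.33, 0.11 and −0.07, and DNAJB5 (−0.84) at −0.23. The 4 higher ones lay above their neighbours' medians. DNAJA4 was at 1.77 beside −0.17, HSPA12A at 1.68 beside 0.24, HSPA2 at 1.38 beside −0.26 and ATF3 at 1.16 beside 0.29. All 12 were picked by their own ratio, which in part sets these distances, and the spread of their neighbours was not taken.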
